A study of Mus musculus with 2 samples.

Results

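Keratin genes were defined by their symbols: every probe set that the platform annotation assigns to a gene named Krt followed by a number and, for some, a letter. This gave 61 of the 45101 probe sets on the array, for 48 of 18194 genes. They comprise 6 keratins of simple epithelia, 20 of stratified epithelia, 8 of the hair root sheaths, 13 of the hair shaft and the keratin-like gene Krt222. Another 7 known keratin genes (Krt9, Krt39, Krt40, Krt74, Krt85, Krt87 and Krt90) were not analysed here, and 1 probe set assigned to both Krt17 and Krt14 was left out.

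The samples were 2 arrays of 1 group, from 1 mouse embryonic stem (ES) cell line, ESSP9, that carries the genotype Del1.3MbWBS, a 1.3 Mb deletion of the segment lost in Williams-Beuren syndrome. The cells were grown with leukaemia inhibitory factor and 20% serum replacement on a layer of feeder cells, so the RNA is that of a mixed culture. The labels name the arrays biological replicates without naming separate cultures, and the spread between the arrays may then be technical in part. The sample set used here holds no line without the deletion, and the values below describe levels in the deletion line and not an effect of the deletion.

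Keratins form the intermediate filaments of epithelial cells. Each filament is built from pairs of an acidic type I and a basic type II keratin, and each epithelium uses its own pair: Krt8 with Krt18 in simple epithelia, Krt5 with Krt14 in the basal layer of the epidermis, Krt1 with Krt10 above it, and a larger set of hard keratins in hair and nail. In the mouse embryo Krt8 and Krt18 are the first keratins to be made, in the trophectoderm. Type II genes lie together on mouse chromosome 15 and type I genes on chromosome 11, with Krt18 as the exception, beside Krt8.

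All values are log2 expression values made by the authors with RMA, for the brightest probe set of each gene unless stated, given for replicate 1 and then replicate 2, with means ± SD (n = 2). A gene was called above background when both arrays exceeded 5.59, the 95th percentile of the means of 38 olfactory receptor genes, of which 2 pass by construction. Probes differ in affinity, so the value of one keratin was not set against that of another. In the culture as a whole, 10 of 10 markers of naive ES cells were above background, with means from 6.32 to 12.63. So were 9 of 9 measured fibroblast markers, with means from 8.92 to 14.87, against 68.3% of all genes. Which cells a keratin transcript came from was not resolved, and fewer cells of a type cannot be told apart from less RNA per cell.

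Of the 48 keratin genes, 17 (35.4%) were above background, against 68.3% of all genes. Per probe set the count was 20 of 61 (32.8%), against 61.8% of the probe sets with 1 gene symbol. Keratin genes had 1.27 probe sets each on average and all genes 1.92, which matters because the brightest one stands for the gene. Among genes with 1 probe set, 13 of 39 keratin genes (33.3%) were above background, against 53.4% of all such genes. The median array value, which pools probes of different affinity, was 5.12 over the keratin genes and 7.19 over all genes; among genes with 1 probe set it was 5.13 for keratin genes and 5.87 for all genes. Most called keratins lay close to the threshold: 11 of the 17 exceeded it by less than 1 log2 unit in the mean. The 6 further above were Krt42, Krt81, Krt8, Krt10, Krt18 and Krt83, and 17 keratin genes had a mean 1 log2 unit or more below it.

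**Figure D1:**
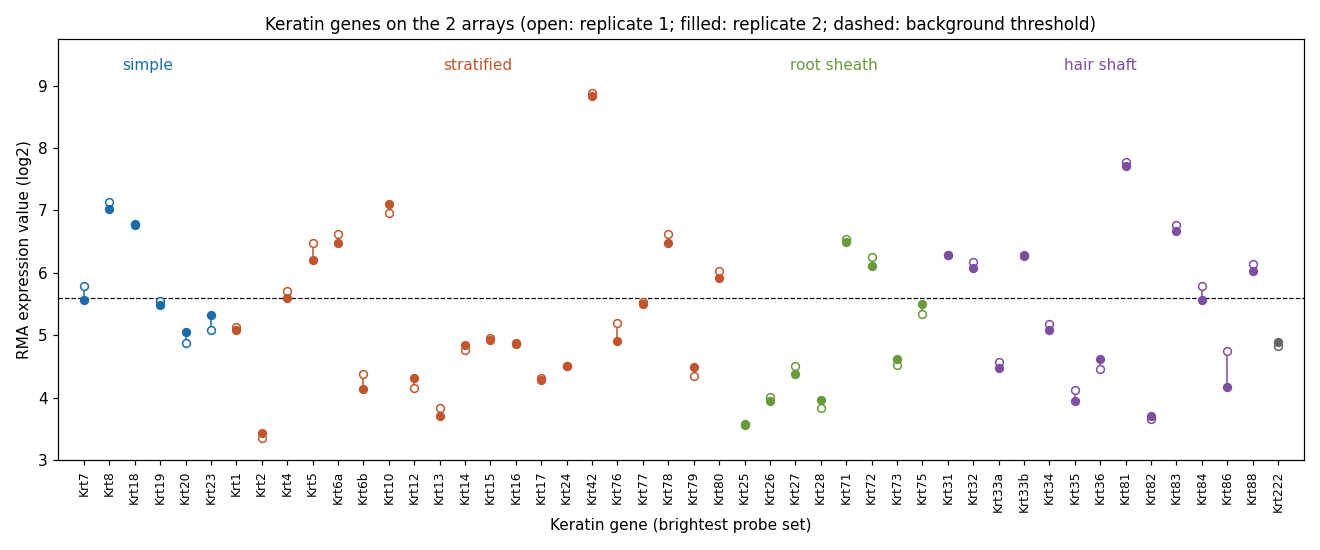
RMA log2 value (vertical axis) of each of the 48 keratin genes on replicate 1 (open circles) and replicate 2 (filled circles), grouped by epithelium, with the threshold of 5.59 as a dashed line. The 17 called genes have both circles above the line, and 6 of the 8 root sheath genes lie below it on both arrays.

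Among the keratins of simple epithelia, the pair Krt8 and Krt18 was above background and the other 4 genes were not. The share was 2 of 6 (33.3%), against 68.3% of all genes. Krt8, the type II partner, was at 7.13 and 7.02 (7.07 ± 0.079). Its other probe sets were also above the threshold, with means of 6.78 and 6.62. All 3 Krt8 probe sets carry a suffix for probes shared between transcripts or genes. Krt18, the type I partner, was at 6.77 and 6.79 (6.78 ± 0.016) on 1 probe set without such a suffix. Both members of the pair thus exceeded the threshold by more than 1 log2 unit on both arrays.

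Krt7 and Krt19, which are found in ducts and in trophoblast, were at the threshold. Krt7 was at 5.79 and 5.57 (5.68 ± 0.15), so that it exceeded the threshold on replicate 1 alone. Krt19 was at 5.55 and 5.49 (5.52 ± 0.044), below it on both arrays. Krt20, a keratin of intestinal epithelium, was at 4.88 and 5.05, and Krt23 was at 5.08 and 5.32. In the trophectoderm list, which shares Krt7, 1 of 6 measured genes (16.7%) was above background, against 68.3% of all genes: Cdx2 was at 5.64 and 5.83, whereas Elf5 (4.13 and 4.34) and Gata3 (5.30 and 5.05) were not. In the mesothelium list 1 of 5 (20%) was, Upk1b at 6.25 and 6.31, whereas Msln (5.20 and 5.31) and Upk3b (5.34 and 5.19) were not. In the extraembryonic endoderm list 7 of 8 (87.5%) were, among them Gata6 at 7.72 and 7.73, Sox17 at 5.84 and 5.78, Sox7 at 5.74 and 6.06 and Foxa2 at 5.74 and 5.70, while Gata4 (5.48 and 5.41) was not. Sox17, Sox7 and Foxa2 lay below 6.08, the threshold from vomeronasal and taste receptor genes, on both arrays. Whether cells of these types were present, and their part in the Krt8 and Krt18 values, was not tested.

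In the stratified group 7 of 20 genes (35%) were above background, against 68.3% of all genes. Krt42 was at 8.88 and 8.83 (8.85 ± 0.038) on a shared probe set and at 7.30 and 7.28 on an unshared one, so both of its probe sets exceeded the threshold on both arrays by more than 1 log2 unit. This type I keratin is known from the mouse nail, and the reference gene table lists ecat6, a name from a series of ES cell-associated transcripts, among its synonyms. Its neighbours in the type I cluster, Krt14, Krt16 and Krt17, were not above background on any of their probe sets. Krt17, a close relative made in skin appendages, had means of 4.29 and 3.84 on its probe sets.

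Krt10, which pairs with Krt1 in the suprabasal epidermis, was at 6.96 and 7.11 (7.03 ± 0.10) on 1 shared probe set. Krt1 was not above background (5.13 and 5.07), nor was Krt2, the other type II keratin of the upper epidermis (3.36 and 3.42). The basal pair was likewise split. Krt5 was at 6.47 and 6.20 (6.34 ± 0.19), and this difference of -0.28 log2 units between the arrays was the widest among the 17 called keratins. Krt14 was at 4.76 and 4.85 on its brightest probe set and had means of 4.30 and 4.25 on the others. Trp63, the transcription factor that sustains basal keratinocytes, was at 4.64 and 4.41, below the threshold. Of 5 pairs set side by side, Krt8 with Krt18 was the 1 pair with both members above background, and in the other 4 pairs 1 member was. The 5 pairs were chosen after the values were seen and include no hair keratins. In the hair shaft group, genes of both types were above background (3 of 6 type II and 3 of 7 type I).

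Krt6a, induced in wounded epidermis and made in appendages, was at 6.63 and 6.48 on its brightest probe set. Its other probe sets had means of 5.39 and 3.61, so the call rests on 1 shared probe set of 3. Its type I partner Krt16 was at 4.88 and 4.86, and the neighbouring copy Krt6b was at 4.38 and 4.14. The sequences of Krt6a and Krt6b are near-identical, and their probes may not separate them. Krt4, a type II keratin of internal stratified epithelia such as the oesophagus, was at 5.71 and 5.60, just past the threshold, and at a mean of 4.84 on its other probe set. Krt13, its type I partner, was at 3.84 and 3.70 on the brightest of its 3 probe sets, none of which was above background.

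The remaining called genes of the group were the type II keratins Krt78, at 6.62 and 6.47, and Krt80, at 6.03 and 5.91. Those not above background were Krt12 of the cornea (4.15 and 4.31), Krt15 of basal and bulge cells (4.95 and 4.93), Krt24 (4.51 and 4.51), Krt76 of the oral palate (5.20 and 4.90), Krt77 (5.53 and 5.50) and Krt79 (4.35 and 4.49). Krt77 lay within 0.073 log2 units of the threshold. The group thus held few called genes with a wide margin: Krt42 and Krt10 exceeded the threshold by 1 log2 unit or more, and the other 5 did not.

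**Figure D2:**
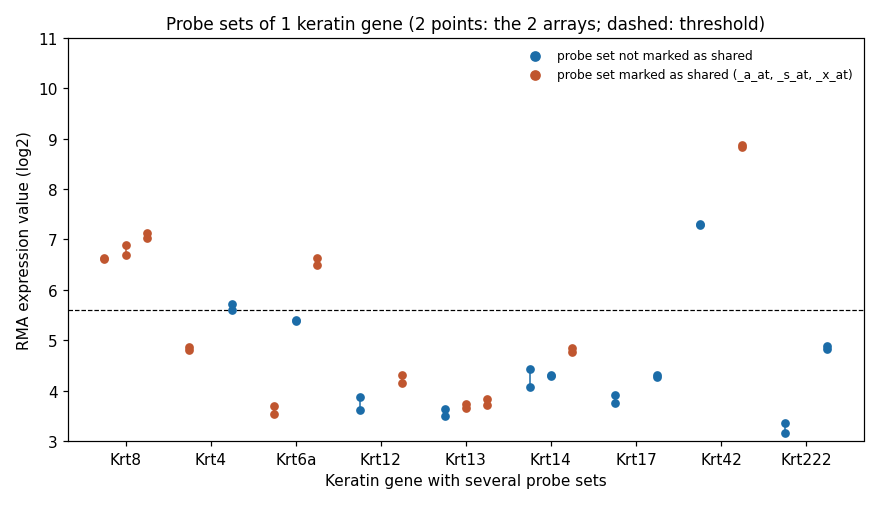
RMA log2 values (vertical axis) of every probe set of the 9 keratin genes that have several, with 1 point for each array, and the threshold as a dashed line. Orange points are probe sets marked as shared. All probe sets of Krt8 and Krt42 lie above the line, those of Krt4 and Krt6a lie on both sides of it, and those of the other 5 genes lie below it.

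Of the root sheath keratins, which stiffen the sheath around the growing hair, 2 of 8 (25%) were above background, against 68.3% of all genes. Both were type II. Krt71, mutated in curly-coated mice, was at 6.54 and 6.49 (6.51 ± 0.035), and Krt72 was at 6.26 and 6.11 (6.18 ± 0.11). The type I genes of the same layer, Krt25 (3.58 and 3.56), Krt26 (4.01 and 3.94), Krt27 (4.50 and 4.37) and Krt28 (3.82 and 3.96), were all more than 1 log2 unit below the threshold. Krt73 was at 4.51 and 4.62, and Krt75, of the companion layer, at 5.34 and 5.49. None of the 4 type I root sheath genes thus accompanied the 2 called type II genes above background.

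Of the hair shaft keratins 6 of 13 (46.2%) were above background, against 68.3% of all genes. Among the type II genes, Krt81, a keratin of the hair cortex in human hair, was at 7.78 and 7.72 (7.75 ± 0.046). Krt83, another cortex keratin, was at 6.76 and 6.68 (6.72 ± 0.057), and Krt88 was at 6.14 and 6.03 (6.08 ± 0.083). Krt88 was placed in this group for its position between Krt87 and Krt81 on chromosome 15. Krt84 had values of 5.78 and 5.57, on both sides of the threshold. Krt82, a hair cuticle keratin, was at 3.65 and 3.70, and Krt86 was at 4.75 and 4.17. Krt81, Krt83 and Krt86 are closely related neighbours, and binding of one gene's transcript by the probes of another was not tested.

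Further hair genes were called in the type I cluster. Krt31 was at 6.28 and 6.29 (6.28 ± 0.0078), Krt33b at 6.27 and 6.28 (6.27 ± 0.0035) and Krt32 at 6.17 and 6.08 (6.13 ± 0.063). Their means lay 0.54 to 0.69 log2 units above the threshold. Krt33a (4.56 and 4.48), Krt34 (5.17 and 5.09), Krt35 (4.12 and 3.95) and Krt36 (4.46 and 4.62) were not above background. Krt222, a keratin-like gene, was at 4.83 and 4.89 and at a mean of 3.25 on its other probe set.

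By filament type, 11 of 23 type II genes (47.8%) and 6 of 24 type I genes (25%) were above background, against the same 68.3% of all genes. The type II count exceeded the type I count in the stratified group (5 of 11 and 2 of 9) and in the root sheath group (2 of 4 and 0 of 4), while the counts were equal in the hair shaft group (3 of 6 and 3 of 7) and in the simple group (1 of 2 and 1 of 4). No test was made of this difference, since genes are not replicates and members of a cluster can share probe sequence. Along chromosome 15, in the order of the reference gene table, the neighbours Krt6a, Krt5 and Krt71 were above background one after the other, as were Krt78, Krt8 and Krt18 at the end of the cluster and Krt88 and Krt81 near its start. On chromosome 11 the neighbours Krt31 and Krt32 were called, with Krt33b beyond Krt34, which was not. Krt10 and Krt42 each had uncalled measured neighbours.

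**Figure D3:**
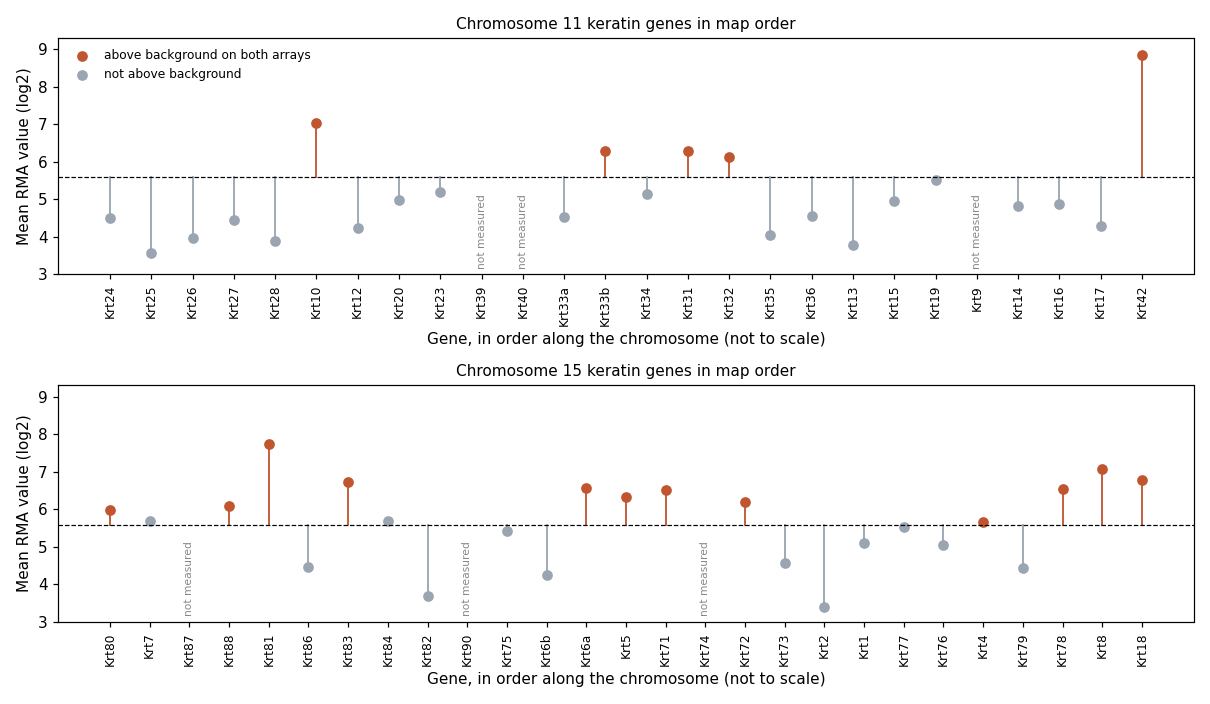
Mean RMA log2 value (vertical axis) of each keratin gene in its order along chromosome 11 (upper panel, 26 genes, 23 measured) and chromosome 15 (lower panel, 27 genes, 24 measured), drawn from the threshold of 5.59. Orange genes were above background on both arrays, 5 on chromosome 11 and 12 on chromosome 15. Distances are not to scale.

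Promoter windows of 300 bases, 250 before and 50 after the annotated start, were found in the RefSeq table (GRCm38.p6) for 32 of the 48 genes. Windows of 4 genes are shown: Krt42, Krt8 and Krt18, whose values exceeded the threshold on every probe set, and Krt14, which did not on any. They lie at chr11:100269902-100270201 on the minus strand for Krt42, chr15:102004293-102004592 on the minus strand for Krt8, chr15:102027966-102028265 on the plus strand for Krt18 and chr11:100205981-100206280 on the minus strand for Krt14. Capitals mark matches on either strand to TATAAA (the TATA box), GGGCGG (the GC box), TGANTCA (the AP-1 site) or ATGCAAAT (the octamer bound by POU factors).
Krt42: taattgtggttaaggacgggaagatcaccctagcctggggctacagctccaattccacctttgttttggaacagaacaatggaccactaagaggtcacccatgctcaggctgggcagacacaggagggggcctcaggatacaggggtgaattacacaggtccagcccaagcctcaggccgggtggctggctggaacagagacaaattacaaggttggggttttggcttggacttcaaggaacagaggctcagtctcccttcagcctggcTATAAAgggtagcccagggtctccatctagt
Krt8: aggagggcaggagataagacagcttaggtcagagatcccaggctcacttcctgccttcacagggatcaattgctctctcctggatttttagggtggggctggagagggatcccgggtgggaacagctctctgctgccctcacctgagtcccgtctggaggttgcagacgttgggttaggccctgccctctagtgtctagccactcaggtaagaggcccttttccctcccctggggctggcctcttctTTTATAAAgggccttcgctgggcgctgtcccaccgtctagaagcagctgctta
Krt18: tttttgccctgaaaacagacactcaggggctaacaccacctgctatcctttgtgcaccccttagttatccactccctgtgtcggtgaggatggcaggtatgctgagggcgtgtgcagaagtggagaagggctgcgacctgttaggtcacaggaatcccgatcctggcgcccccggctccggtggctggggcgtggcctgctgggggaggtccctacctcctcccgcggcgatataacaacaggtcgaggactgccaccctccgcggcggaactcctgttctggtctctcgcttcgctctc
Krt14: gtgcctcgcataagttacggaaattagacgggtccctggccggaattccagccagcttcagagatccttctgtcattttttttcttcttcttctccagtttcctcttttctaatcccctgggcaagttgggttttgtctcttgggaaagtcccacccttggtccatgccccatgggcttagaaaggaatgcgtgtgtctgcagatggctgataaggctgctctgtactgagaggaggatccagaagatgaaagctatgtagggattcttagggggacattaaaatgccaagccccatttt

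In these 4 windows the capitals are matches to TATAAA alone. In Krt42 the match begins at base 20 of the annotated transcript, and in Krt8 matches on opposite strands begin at bases -3 and -1 and overlap. Krt18 and Krt14 hold none of the 4 motifs as spelled. Matches were counted at any position in the window and on either strand. Over the 32 keratin windows, TATAAA occurred in 18 (56.3%), against 13.6% of all 32851 windows in the table. GGGCGG occurred in 2 of the 32 (6.25%), those of Krt7 and Krt75, against 35.7% of all windows. TGANTCA occurred in 1 (that of Krt13), against 7.81%, and ATGCAAAT in 0, against 1.74%. The TATAAA match was in 8 of 11 windows of called keratins and 10 of 21 of those not called. Called keratins had a median of 4 CpG dinucleotides a window and the others 6, while all windows had 7. Krt18 had 17 and Krt7 had 21, the most among the 32. Keratin genes are related by descent, so their windows are not independent, and a match does not show that a factor binds.

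Of the genes that anchor or accompany keratin filaments, 7 of 12 desmosome genes (58.3%) were above background, against 68.3% of all genes. Desmoplakin (Dsp), which ties keratin to the desmosome, was at 6.89 and 6.89, plakoglobin (Jup) at 7.64 and 7.74, and the plakophilins Pkp2 at 10.44 and 10.47 and Pkp3 at 6.02 and 6.29. The epidermal forms Pkp1 (5.12 and 5.13) and Dsg1a (3.29 and 3.33) were not. Of the plakins and hemidesmosome linkers 9 of 11 (81.8%) were above background, against the same 68.3%. Plectin (Plec) was at 10.95 and 10.93, Dst at 10.58 and 10.596, envoplakin (Evpl) at 6.16 and 6.13 and Macf1 at 10.31 and 10.32. Periplakin (Ppl, 5.17 and 5.35) and Col17a1 (3.72 and 3.66), a collagen of the hemidesmosome, were not above background.

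Other intermediate filament genes were above background in 11 of 15 cases (73.3%), a share near the 68.3% of all genes. Vim, the filament of mesenchymal cells, was at 14.30 and 14.27, Des at 7.34 and 7.12, Nes at 9.53 and 9.595 and Synm at 6.39 and 6.36. Gfap (5.47 and 5.58) and Prph (5.72 and 5.34) were not called. Vim is also a gene of the fibroblasts whose markers were all above background on these arrays.

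Of the cornified envelope genes, which form the outer shell of keratinocytes, 6 of 12 were above background: loricrin (Lor) was at 7.62 and 7.17, involucrin (Ivl) at 6.01 and 6.15, and the transglutaminases Tgm1 at 8.19 and 8.14 and Tgm3 at 7.31 and 7.38. Filaggrin (Flg, 3.22 and 3.07) and Sprr1a (5.17 and 5.34) were not. The Tgm1 value is of a shared probe set, and with unshared probe sets alone 3 of 11 genes of this list were above background. Of the epithelial transcription factors 11 of 16 were, including the grainyhead factors Grhl1 (5.96 and 6.07), Grhl2 (8.01 and 7.77) and Grhl3 (5.97 and 6.03) and Klf4 (11.19 and 11.26), which ES cells also use. Trp63, given above, and Ovol1 (4.73 and 4.32) were not. Grhl1 and Grhl3 lay below 6.08, the threshold from vomeronasal and taste receptor genes, on both arrays. With that threshold 7 of the 16 factors passed, against 61.9% of all genes. Of the hair follicle regulators 5 of 8 were above background at 5.59, among them Msx2 at 7.59 and 7.48, Lef1 at 7.63 and 7.69, Trps1 at 8.16 and 8.08 and Dlx3 at 6.46 and 6.33. Hoxc13 (5.11 and 5.19) and Foxn1 (5.19 and 4.94), which switch on hair keratin genes, were not above background. Of the epithelial surface markers 7 of 10 were, with Epcam at 10.33 and 10.39, E-cadherin (Cdh1) at 10.31 and 10.37, Cldn4 at 6.09 and 5.85 and Cldn6 at 6.49 and 6.61, while Ocln (5.42 and 5.03) and Tjp3 (4.801 and 5.06) were not. These shares lay between 50% and 81.8%, on both sides of the 68.3% of all genes.

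**Figure D4:**
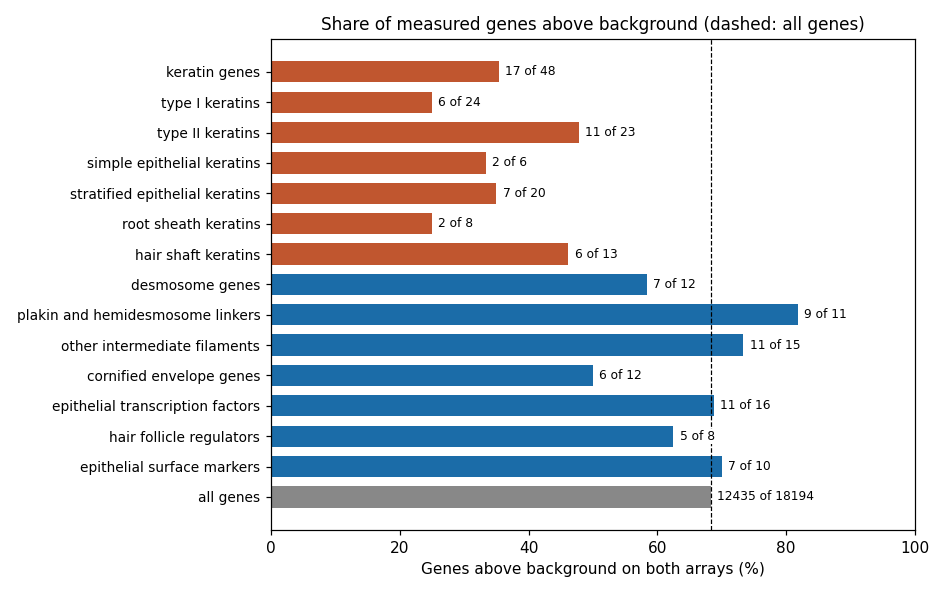
Share of measured genes above background on both arrays (horizontal axis, percent) for the keratin genes and their subgroups (orange), 7 lists of partner and regulator genes (blue) and all genes (grey, 68.3%, dashed line). Each bar carries its count, and all 7 keratin bars end left of the dashed line.

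The arrays gave similar values for the keratins. Over the 48 genes the SD of the difference, replicate 2 minus replicate 1, was 0.15 log2 units, against 0.14 over all genes, and the median difference was -0.055, against 0.0093. In 32 keratin genes replicate 1 was higher and in 16 replicate 2 was, whereas over all genes the counts were 8430 and 9746. Of the 17 called keratins 13 were higher on replicate 1, against 5332 of the 12435 genes above background. The 17 called keratins had an SD of 0.092, against 0.11 over all genes above background, and the 31 others 0.17, against 0.18 over all genes not above it. Krt86 differed most, by -0.58 log2 units. Its mean was 4.46, and over all genes with means from 4 to 5 the SD was 0.19. Krt23 had the largest difference in the other direction, 0.24. A difference of more than 0.20 log2 units was found in 7 keratin genes (14.6%) and in 12.8% of all genes.

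**Figure D5:**
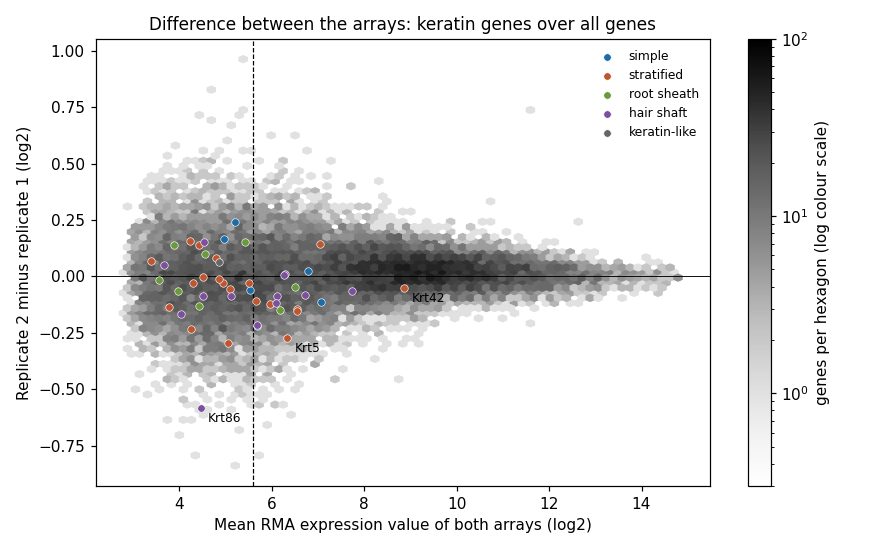
Replicate 2 minus replicate 1 (vertical axis, log2 units) against the mean of both arrays (horizontal axis, log2) for the keratin genes (coloured points) over all 18194 genes (grey hexagons, darker where more genes lie), with the threshold of 5.59 as a dashed line. Most keratins lie within 0.30 log2 units of 0, and Krt86, at -0.58, is the 1 keratin gene beyond that.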

How the data were processed

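Total RNA of 1 ES cell line was measured on 2 Affymetrix 1-colour mouse arrays. The deposited values are log2 expression values made by the authors with RMA, per the submitters' processing notes; neither its version nor the set of arrays it was run on is stated in the labels. RMA equalises the arrays' distributions, so a shift common to most genes would not be seen, and it gives no detection call. There is no read depth, and precision is limited by the number of arrays. Columns not used numbered 0.

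Of 45101 probe sets, 34958 had 1 gene symbol in the platform annotation, 932 had several and 9211 had none here. Gene identifiers matched the reference table (GRCm38.p6) for 34754 of the 34958, and 0 symbols changed. The brightest probe set stood for a gene. With 1 group no test between groups was possible, and no p-value is given. Every keratin gene is named; of each other list up to 4 members above background and up to 2 below it are given, taken in list order. The ES cell and fibroblast markers are given as ranges. Klf4 and Gata3 stand in several lists and were given once. The members and lists were chosen with earlier results of these data known. Keratin pairs and promoter motifs were chosen after the values were seen. Planned protein sequences were not used here. Alternatives were other thresholds, reference genes and probe set rules, each array alone, and centring and loess (fraction 0.3) of the difference. Computations used Python 3.11.15, numpy 2.4.6, pandas 2.3.3 and statsmodels 0.14.6.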

Additional observations from a re-analysis of the deposited data

How the results depend on the processing

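Of 101 alternative values for the counts and replicate differences, 97 stayed within 1.5 times the reported count or SD, or for the median difference within its SD over the keratin genes. The 17 keratin genes above background became 16 with the 99th percentile of the olfactory receptors (threshold 5.66), 14 with vomeronasal and taste receptors (threshold 6.08), 21 with the median of all probe sets (threshold 5.30), 19 (of 42 measured) with unshared probe sets, which also lowered the threshold to 5.30 and admitted Krt19, Krt75, Krt77 and Krt84, 19 on the mean alone, and 17 to 19 with each array alone. The share of all genes then ranged from 61.9% to 69.3%. Over all 8 settings, the reported one included, 12 keratin genes were above background each time. Of these, Krt6a passed with unshared probe sets and with the median at 5.39, above the lowered threshold but below 5.59. Krt32, at 6.0813 on replicate 2, only just passed the vomeronasal and taste receptor threshold of 6.0805. Of the other 5 called genes, Krt8 and Krt10 have only shared probe sets and could not be measured without them. Krt4 was lost in 3 settings, and Krt80 and Krt88 with the vomeronasal and taste receptors. Counts that moved further were the simple keratins, 4 in place of 2 with the median over a gene's probe sets, where the lower threshold admits Krt7 and Krt19; the cornified envelope genes, 3 in place of 6 with unshared probe sets; and the epithelial transcription factors, 7 in place of 11 with the vomeronasal and taste receptors, a higher threshold. The brightest probe sets of Tgm1, Sbsn and Casp14, called otherwise, are shared ones. The SD of the difference between arrays was 0.097 in place of 0.15 over the 19 keratin genes past the threshold on at least 1 array. When the median stood for a gene, the level of each of the 9 genes with several went beyond its SD, down by 0.096 to 1.17 log2 units. No paired analysis was possible because there is only 1 group. Signal near background limits the calls within about 1 log2 unit of the threshold.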

Other observations

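The probe set assigned to both Krt17 and Krt14, which was left out of the counts, was at 5.58 on replicate 1 and 5.41 on replicate 2, below the threshold of 5.59 on both arrays. Krt17 and Krt14 were also below it on each of their own probe sets.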
